A study of Bos taurus with 8 samples.

Results

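The genes described here encode the subunits of the proteasome and the E2 enzymes that load ubiquitin onto proteins, measured in cattle muscle. They were taken by symbol: every gene whose name begins with PSMA, PSMB, PSMC, PSMD, PSME, PSMF, PSMG or UBE2. The array named probes for 52 such genes, 35 with a PSM prefix and 17 with the UBE2 prefix, out of 6642 named genes with a usable probe (17061 usable probes in all). All 52 passed the filter on dim probes, which asked for a signal well above background in at least 4 of 16 channel readings, and 51 were well above background in all 16. UBE2C was the exception, with 14 of 16 readings and only 2 of the 4 Holstein-Friesian ones. Another 32 genes with these prefixes, among them PSMB1, PSMB6, PSMB10, PSMD7, PSMF1, UBE2B, UBE2M and UBE2N, had no named probe and are not analysed here. PSME3IP1 came in by its prefix only; it encodes a protein that binds the activator PSME3 and is no subunit, and it is kept apart below.

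The study set muscle of 2 well-marbled breeds against the lean Limousin breed. Total RNA came from the semitendinosus, a hind limb muscle, of 12 bulls aged 15 months, 4 each of Hereford, Holstein-Friesian and Limousin. Each of 8 two-colour arrays paired a bull of a marbled breed with a Limousin, with the 4 Limousin bulls repeated from slide to slide, so that array 1 of either breed carried Limousin bull 1 and so on. Hereford was always read in Cy5 against Limousin in Cy3, and Holstein-Friesian always in Cy3 against Limousin in Cy5, so that a single comparison cannot tell breed from dye or slide.

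The proteasome is the protease that destroys proteins tagged with ubiquitin. Its 20S core is a barrel of outer alpha rings (PSMA), which gate the entrance, and inner beta rings (PSMB), which hold the cutting sites. The 19S cap has a ring of ATPases (PSMC) that unfold the substrate and non-ATPase subunits (PSMD) that bind it and remove its ubiquitin. Ubiquitin itself passes from an E1 activating enzyme to an E2 (UBE2) and, with the help of an E3 ligase, to the target. In skeletal muscle this route breaks down contractile proteins and is known for its part in atrophy.

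Values are log2 ratios of breed over Limousin, and a call means a Benjamini-Hochberg adjusted p under 0.05 over all 17061 probes in limma. The median spot stood above its background by 97 to 139 intensity units in Hereford, 30.5 to 46.5 in Holstein-Friesian, 63 to 88 in Limousin in Cy3 and 96.5 to 118 in Limousin in Cy5. Between 13944 and 17096 probes a channel were well above background, and 4 arrays a breed limit how precise any value can be. The muscle fibre markers with a named probe (ACTA1, CKM, MB, DES, MYL1 and ACTN3, 6 of 8 listed) were well above background in all 16 readings. Array 1 of each breed stood apart for the proteasome genes on both slides, and results are therefore also given without Limousin bull 1. In RNA of whole tissue, fewer cells of a type and less RNA per cell cannot be told apart.

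Most members were lower in Hereford than in Limousin, and a single member fell in both breeds. Against Limousin, 40 of 52 members (76.9%) had a mean below 0 in Hereford, against 48% of all probes, and their median was -0.21. In Holstein-Friesian 32 of 52 (61.5%) were below 0, against 53.9% of all probes, with a median of -0.12. In the mean of both marbled breeds, taken per Limousin bull, 37 of 52 (71.2%, against 50.2%) were below 0, with a median of -0.12. The all-probe medians were 0.01, -0.01 and -0.00063. Without Limousin bull 1 the members' medians were -0.08 in Hereford (37 of 52 below 0), -0.06 in Holstein-Friesian (28 of 52) and -0.04 in the mean of both breeds (32 of 52). Both breeds were read against the same Limousin bulls, so these counts are not independent of each other.

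These directions depend on how the dyes were balanced. The main values come from loess, a curve fitted to each array along signal strength; 42 of the 52 members (80.8%) lay among the brightest 25% of probes. With each array centred on its median ratio instead, the median of all probes moved to 0.10 in Hereford and -0.20 in Holstein-Friesian. The members then had a median of 0.09 in Hereford (18 of 52 below 0), or -0.01 relative to all probes, and of -0.71 in Holstein-Friesian (49 of 52 below 0), or -0.51 relative to all probes. In the mean of both breeds each dye is used equally for the marbled side. There the members' median was -0.28 with this centring and -0.14 with the scanner's own processed signals, below 0 as after loess. These medians of the mean were not taken relative to all probes. Comparing each breed with the same Limousin bull read in the same dye on the other slide gave medians of -0.19 in Hereford (40 of 52 below 0) and -0.02 in Holstein-Friesian (27 of 52).

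**Figure D1:**
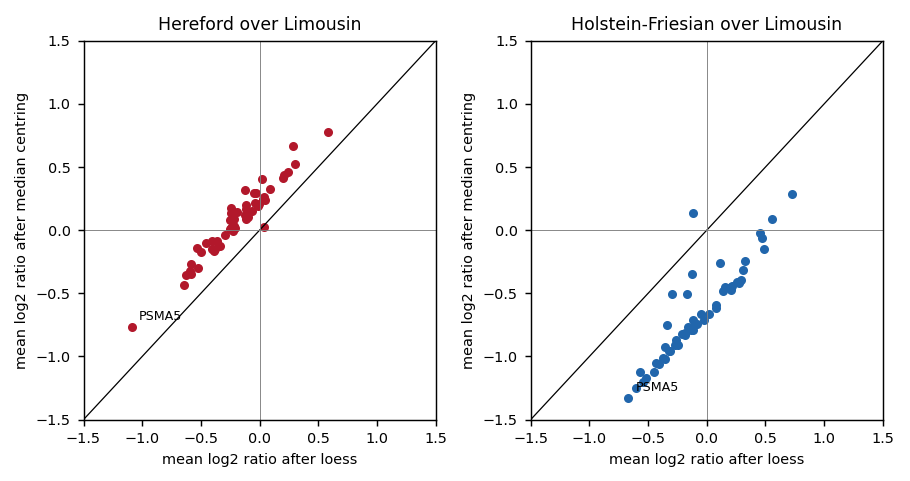
Mean log2 ratio of each of the 52 members over 4 arrays, after loess (horizontal axis) and after median centring (vertical axis), for Hereford over Limousin (left) and Holstein-Friesian over Limousin (right); the diagonal marks equal values. Points lie mostly above the diagonal in Hereford and below it in Holstein-Friesian, where the members' median went from -0.12 to -0.71, while PSMA5 is the lowest member in both panels under both methods.

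By the test over all probes, 7 of 52 members (13.5%) were called in Hereford, against a background of 7.14% of all probes, and 17 had an unadjusted p under 0.05 (background 24.2%). Of these, 6 fell (11.5%, background 3.75%) and 1 rose (1.92%, background 3.39%). In Holstein-Friesian 1 member fell (1.92%, background 3.45%; 6.45% in either direction, 3% higher), a share below the background, and 19 had an unadjusted p under 0.05 (background 23.5%). In the mean of both breeds 1 member fell (1.92%, background 0.275%; 0.598% in either direction, 0.322% higher), and 13 had an unadjusted p under 0.05 (background 19.6%). A fit of the 8 arrays that treats each Limousin bull as a block called 7 in that mean, against 5.33% of all probes. The member called in each of the 3 was PSMA5. Members whose 4 Hereford arrays all lay below 0 numbered 17 of 52 (32.7%, against 13.9% of all probes), and those whose 4 Holstein-Friesian arrays did numbered 20 (38.5%, against 20.7%). The Hereford count of 7 was 0 without bull 2 or without bull 4 and 2 without bull 3. The share of all probes called fell as well, to 0.264% without bull 2, 0.176% without bull 4 and 2.06% without bull 3. In these limma fits 17, 16 and 20 members had an unadjusted p under 0.05. For the 6 called besides PSMA5 (PSMC4, PSMD6, PSMD11, PSME3IP1, UBE2J2 and UBE2W), limma adjusted p ran from 0.0942 for PSME3IP1 to 0.17 for UBE2W without bull 2, from 0.0467 for UBE2J2 to 0.122 for UBE2W without bull 3, and from 0.102 for PSME3IP1 to 0.188 for UBE2W without bull 4.

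**Figure D2:**
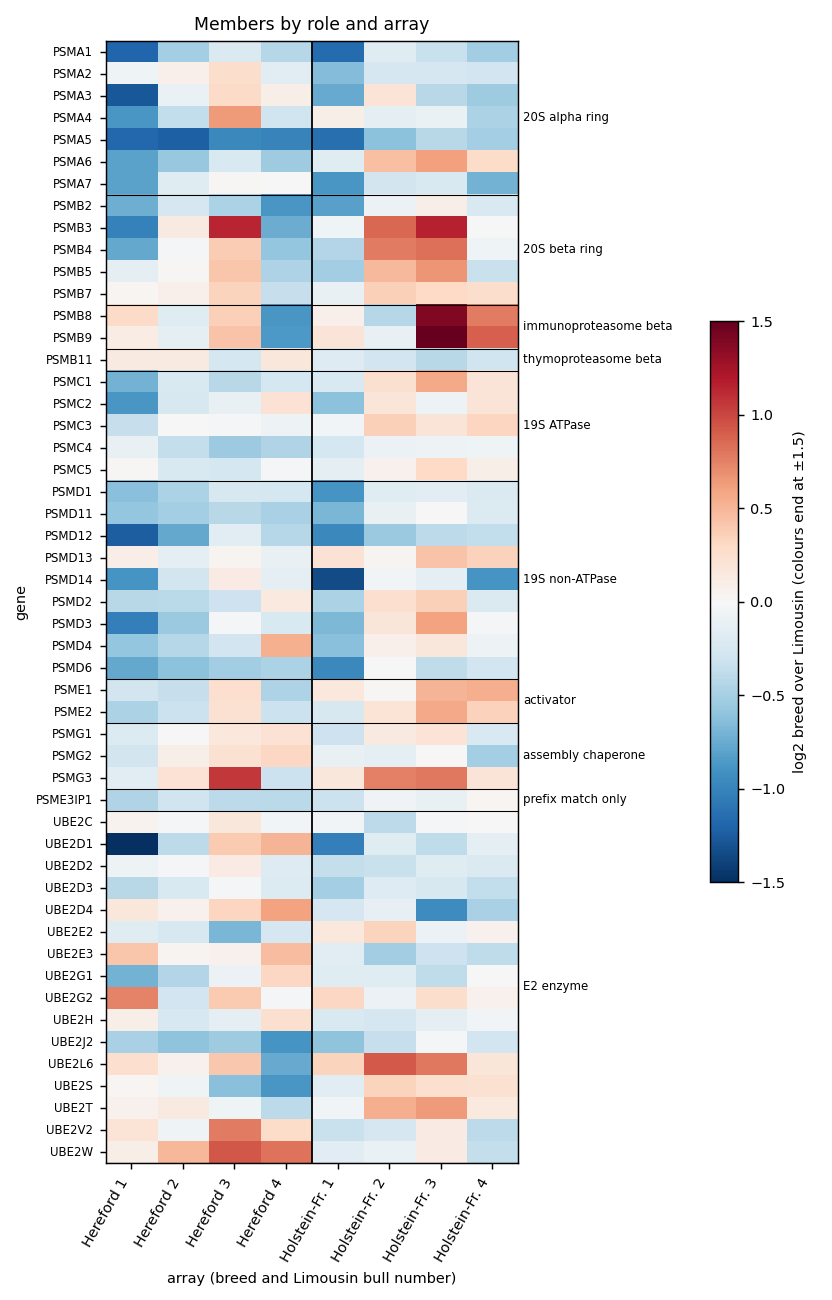
Log2 ratio of breed over Limousin for 51 of the 52 members (rows, grouped by role) on each of the 8 arrays (columns, named by breed and Limousin bull), after loess; blue is below 0, red above, and colours end at ±1.5. The PSMA5 row is blue on all 8 arrays, and the columns of Limousin bull 1 are the bluest of each breed among 20S and 19S subunits; with median centring nearly all Holstein-Friesian means are lower (49 of 52 below 0).

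The alpha ring holds the member with the largest fall. PSMA5, an alpha ring subunit, read -1.17, -1.22, -0.963 and -0.999 on Hereford arrays 1 to 4, a mean of -1.09 (SD 0.13, n = 4 arrays), which is 0.47 of the Limousin level (limma adjusted p = 0.00655). On the Holstein-Friesian arrays it read -1.13, -0.61, -0.42 and -0.51, a mean of -0.67 (SD 0.32, n = 4), or 0.629 of Limousin (limma adjusted p = 0.0169). All 8 arrays were below 0, and array 1 was the lowest in Holstein-Friesian but not in Hereford. In the mean of both breeds PSMA5 stood at -0.88 (SD 0.21, n = 4 bulls, limma adjusted p = 0.0468), below 0 in 4 of 4 bulls. With both sides in the same dye the values were -1.01 for Hereford and -0.74 for Holstein-Friesian, and both were called. The same Limousin bulls read in Cy5 and in Cy3, which also differ by slide, differed by -0.08. Same-dye values are the loess values shifted by that Limousin difference, so their mean over both breeds is fixed at the loess mean. The call of PSMA5 was lost in Hereford without bull 2 or 4 (limma adjusted p = 0.0615 and 0.0585), in Holstein-Friesian without bull 2, 3 or 4, and in the mean of both breeds without any single bull (0.0904 to 0.189), while its values stayed below 0.

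The other alpha subunits followed in part. The 7 measured (PSMA1 to PSMA7) had a median of -0.25 in Hereford (6 of 7 below 0) and -0.37 in Holstein-Friesian (6 of 7), and with median centring of -0.01 and -1.01. PSMA1 read -1.19, -0.51, -0.21 and -0.42 in Hereford and -1.15, -0.18, -0.33 and -0.52 in Holstein-Friesian, with limma adjusted p = 0.104 and 0.129. It was below 0 on every array, with array 1 far the lowest in both breeds. PSMA6 differed in sign between the breeds: -0.80, -0.56, -0.22 and -0.54 in Hereford (mean -0.53, limma adjusted p = 0.0532) against -0.18, 0.45, 0.61 and 0.28 in Holstein-Friesian (mean 0.29, 0.242). Its Hereford arrays were lower than the Holstein-Friesian array of the same bull in 4 of 4 bulls, by a mean of -0.82 (SD 0.16). The limma adjusted p was 0.0638 from the breed means, without the pairing by bull, and 0.0310 in limma on the 4 bull differences. PSMA2 stood the other way, near 0 in Hereford (mean 0.03) and at -0.65, -0.25, -0.25 and -0.28 in Holstein-Friesian (limma adjusted p = 0.0619). PSMA7 had a mean of -0.24 in Hereford and -0.52 in Holstein-Friesian, yet its Limousin readings alone were 0.56 higher in Cy5 than in Cy3 (limma adjusted p = 0.0429), and read in the same dye it stood at -0.80 and 0.04. PSMA3 and PSMA4 spread widely between arrays, from -1.27 to 0.29 and from -0.87 to 0.63 in Hereford.

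The beta ring gave no call in the 4 comparisons, although PSMB2 was called in Hereford (limma adjusted p = 0.0499) when only probes above background in all 16 readings were tested. Its 5 measured constitutive subunits had a median of -0.12 in Hereford and 0.20 in Holstein-Friesian, which median centring turned to 0.17 and -0.48. PSMB2, a non-catalytic subunit, was the lowest, at -0.73, -0.25, -0.47 and -0.87 in Hereford (mean -0.58, SD 0.27, limma adjusted p = 0.0586) and -0.82, -0.09, 0.09 and -0.23 in Holstein-Friesian (0.35). All 4 Hereford arrays were below 0 but the Holstein-Friesian arrays lay on both sides; the Limousin bulls alone read -0.27 in Cy5 against Cy3 (limma adjusted p = 0.0429). PSMB5, which carries the chymotrypsin-like site, had means of -0.05 in Hereford (SD 0.37) and 0.08 in Holstein-Friesian (SD 0.59), both smaller than their spread. PSMB7, which carries the trypsin-like site, had means of 0.02 and 0.20 (limma adjusted p = 0.94 and 0.347). PSMB3 moved more between bulls than between breeds, with -1.02, 0.14, 1.14 and -0.74 in Hereford and -0.06, 0.87, 1.15 and 0.0043 in Holstein-Friesian, highest on array 3 of each breed. PSMB4 had the same order of arrays 1 and 3, at -0.77 and 0.39 in Hereford and -0.44 and 0.82 in Holstein-Friesian, and its difference between the breeds was -0.52 (limma adjusted p = 0.458).

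In the 19S cap, the ATPase ring was lower in Hereford and near 0 in Holstein-Friesian. The 5 measured ATPases were all below 0 in Hereford, with a median of -0.25 (0.08 with median centring), and 2 of 5 were below 0 in Holstein-Friesian, with a median of 0.08 (-0.62 with median centring). PSMC4 fell in Hereford, at -0.11, -0.36, -0.55 and -0.45 (mean -0.37, SD 0.19, 0.775 of Limousin, limma adjusted p = 0.0332). In Holstein-Friesian it read -0.26, -0.08, -0.08 and -0.06 (limma adjusted p = 0.4), all below 0, and 3 of those 4 lay above every Hereford array. PSMC1 read -0.71, -0.23, -0.42 and -0.26 in Hereford (limma adjusted p = 0.0984) against -0.22, 0.24, 0.57 and 0.19 in Holstein-Friesian (0.412), so the Hereford array was the lower in 4 of 4 bulls; the difference of -0.60 had a limma adjusted p of 0.114. PSMC3 showed a difference of -0.32 with a narrow spread over the 4 bull differences (SD 0.08). Its limma adjusted p of 0.185 came from the breed means, without the pairing by bull. Limma on the 4 bull differences did not call PSMC3 either. PSMC2 and PSMC5 had means of -0.25 and -0.13 in Hereford and -0.08 and 0.08 in Holstein-Friesian.

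The non-ATPase subunits of the cap held 2 falls in Hereford. All 9 measured were below 0 in Hereford (median -0.40; 6 of 9 and -0.08 with median centring), and 7 of 9 in Holstein-Friesian (median -0.25; 9 of 9 and -0.91 with median centring). PSMD11 fell, at -0.58, -0.51, -0.42 and -0.49 in Hereford, a mean of -0.50 with a narrow spread (SD 0.07, 0.707 of Limousin, limma adjusted p = 0.0307). In Holstein-Friesian it read -0.68, -0.11, 0.00025 and -0.20 (limma adjusted p = 0.198), so the breeds overlapped through array 1. PSMD6 fell in Hereford as well, at -0.77, -0.62, -0.52 and -0.48 (mean -0.60, SD 0.13, 0.662 of Limousin, limma adjusted p = 0.0396), and stood at -0.96, -0.0028, -0.38 and -0.29 in Holstein-Friesian (0.12). Both encode subunits of the lid, the part of the cap that supports ubiquitin removal.

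Another lid subunit, PSMD12, had the lowest mean of the cap in Hereford but a wide spread. It read -1.23, -0.77, -0.17 and -0.43 in Hereford (mean -0.65, SD 0.46, limma adjusted p = 0.0597) and -0.97, -0.56, -0.40 and -0.36 in Holstein-Friesian (mean -0.57, SD 0.28, 0.0888). Every array was below 0, with array 1 the lowest in each breed. With the Limousin bull as a block, PSMD12 (limma adjusted p = 0.0331), PSMD6 (0.0391) and PSMD11 (0.0415) were called lower in the mean of both breeds; the fit on the 4 bull means called none of them (0.122, 0.0966 and 0.105). PSMD14, the deubiquitinase of the lid, ranged from -0.88 to 0.12 in Hereford and from -1.34 to -0.05 in Holstein-Friesian (limma adjusted p = 0.505 and 0.168). PSMD4, a ubiquitin receptor, had means of -0.19 and -0.12 with SDs of 0.50 and 0.35. The scaffold subunits PSMD1 and PSMD2 had means of -0.40 and -0.25 in Hereford and of -0.36 and -0.02 in Holstein-Friesian, and PSMD3 of -0.46 and 0.02. PSMD13 stood apart as the lid subunit on the upper side, at 0.21, 0.04, 0.42 and 0.35 in Holstein-Friesian (limma adjusted p = 0.0931) and -0.03 on average in Hereford.

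**Figure D3:**
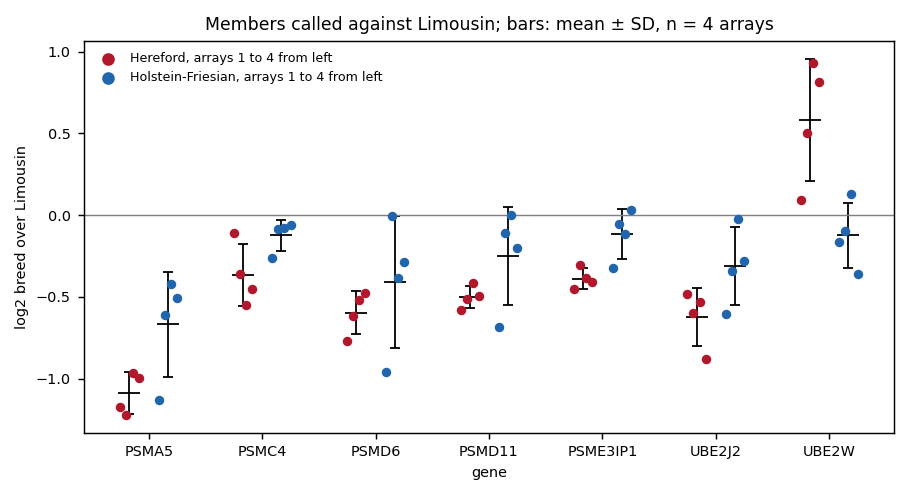
Log2 ratio of breed over Limousin for the 7 members called in either breed, each point 1 array (red Hereford, blue Holstein-Friesian, arrays 1 to 4 from left), with the mean and SD of 4 arrays; these genes were chosen by their test. PSMA5 lies lowest, with Hereford arrays from -1.22 to -0.963, and UBE2W is the 1 member above 0 in Hereford.

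The arrays of Limousin bull 1 were the lowest for the core and cap together. The 26 constitutive subunits of the 20S and 19S had medians of -0.75, -0.27, -0.14 and -0.28 on Hereford arrays 1 to 4, and of -0.62, 0.05, 0.04 and -0.21 on Holstein-Friesian arrays 1 to 4. On array 1, 23 and 24 of the 26 subunits were below 0. On the same arrays the median of all probes was 0.0034 and -0.01, and the SD over all probes was 0.51 on Hereford array 1, against 0.39 to 0.43 on the other Hereford arrays. Without bull 1 the medians of the 26 were -0.14 in Hereford (22 of 26 below 0), -0.01 in Holstein-Friesian (13 of 26) and -0.05 in the mean of both breeds (17 of 26); with all bulls they were -0.25, -0.12 and -0.18. Some markers of other cells also stood apart on Hereford array 1, at 2.97 for the adipocyte gene FABP4, 2.92 for the adipocyte gene CIDEC and 1.57 for the globin HBA. On Holstein-Friesian array 1 they read 0.32, 0.37 and 0.40. The other adipocyte markers measured lay between -0.48 (LPL) and 0.59 (PLIN1) on Hereford array 1, and the globin HBB read -0.02. FABP4 also read 1.56 on Hereford array 3. Fibroblast markers on Hereford array 1 ran from -0.79 (PDGFRA) to 1.51 (COL1A2), and smooth muscle markers from 0.05 (ACTA2) to 1.56 (CNN1). The part of such cells in the values of array 1 was not tested. The number of members called in Hereford was 7 with and without bull 1 (7.14% and 6.18% of all probes).

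**Figure D4:**
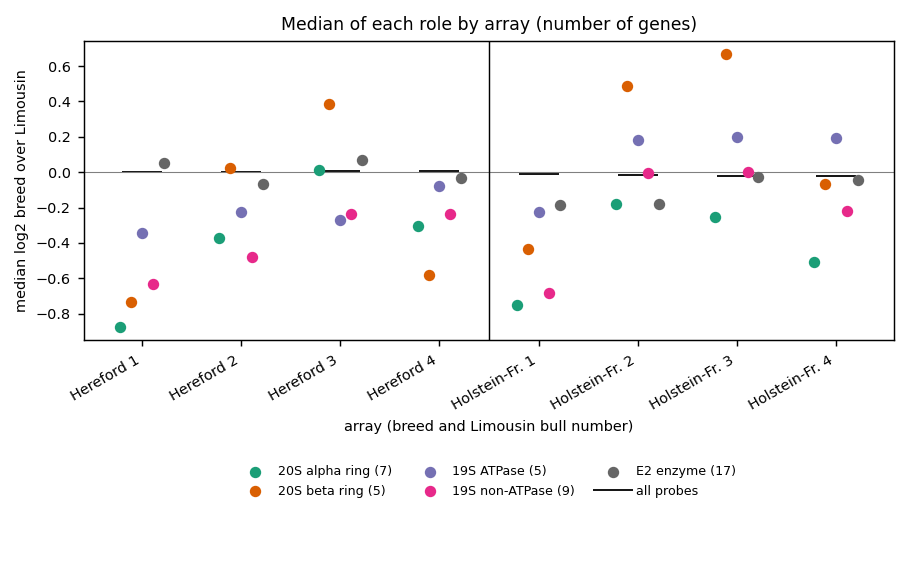
Median log2 ratio of breed over Limousin of each role (coloured points; number of genes in the key) on each array after loess, with the median of all probes as a black line. Alpha ring, beta ring and cap points lie lowest on the arrays of Limousin bull 1 (alpha ring -0.87 and -0.75), whereas E2 enzymes stay between -0.18 and 0.07; after median centring the Hereford medians of these roles lie between -0.08 and 0.17.

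Members that interferon induces had means below 0 in Hereford and above 0 in Holstein-Friesian, without a call. The medians of the 5 measured were 0.11, -0.18, 0.35 and -0.76 on Hereford arrays 1 to 4, on both sides of 0. On Holstein-Friesian arrays 1 to 4 they were 0.16, 0.01, 0.79 and 0.54. Interferon makes cells swap catalytic beta subunits for PSMB8 and PSMB9, forming the immunoproteasome that cuts peptides for antigen presentation, and raises the activator subunits PSME1 and PSME2 and the E2 UBE2L6, which attaches the ubiquitin-like ISG15. PSMB9 read 0.11, -0.13, 0.43 and -0.86 in Hereford and 0.19, -0.12, 1.92 and 0.89 in Holstein-Friesian (means -0.11 and 0.72, limma adjusted p = 0.883 and 0.228). PSMB8, its close neighbour in the genome with 1 gene between them, read 0.29, -0.18, 0.35 and -0.87 against 0.07, -0.43, 1.39 and 0.78 (0.888 and 0.416). Array 3 was the highest for both genes in both breeds, and the breeds overlapped.

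The activator pair, whose genes also lie with 1 gene between them, and UBE2L6 gave no call either. PSME1 had means of -0.21 and 0.31, with a difference of -0.51 (limma adjusted p = 0.177), and PSME2 of -0.22 and 0.22 (-0.44, 0.274). UBE2L6 stood at 0.33, 0.92, 0.79 and 0.18 in Holstein-Friesian (mean 0.56, limma adjusted p = 0.137) and at -0.0068 on average in Hereford. With median centring the 5 genes had a median of 0.09 in Hereford and -0.02 in Holstein-Friesian, against -0.11 and 0.45 after loess, so the order of the breeds turns; relative to all probes the centred medians were -0.01 and 0.18. Read in the same dye the medians were -0.10 and 0.45.

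Other interferon response genes were low against Limousin in both breeds, except IRF9 at 0.21 in Holstein-Friesian. ISG15, the protein that UBE2L6 conjugates, stood at -3.12, -2.49, -0.30 and -2.64 in Hereford and -2.16, -2.84, 1.09 and -0.86 in Holstein-Friesian, highest on array 3 of each breed (limma adjusted p = 0.0895 and 0.318). MX1, an antiviral GTPase, fell in Holstein-Friesian (mean -1.53, SD 0.85, limma adjusted p = 0.0402; 0.111 to 0.199 without bull 1, 2 or 4) and had a mean of -1.35 in Hereford (0.0547). RTP4 fell in Hereford (mean -1.39, limma adjusted p = 0.039; 0.102 to 0.186 without bull 1, 2 or 4) and stood at -0.96 in Holstein-Friesian (0.116). The 3 macrophage markers measured of 5 listed (CD68, CD14 and AIF1) had medians of -0.39 to -0.05 on the Hereford arrays and -0.12 to 0.89 on the Holstein-Friesian arrays, and CD163 and CSF1R had no usable named probe. Their part in the immunoproteasome values was not tested. PSMB11, the beta subunit known from the thymus, was well above background in all 16 readings, with means of 0.05 in Hereford and -0.30 in Holstein-Friesian (limma adjusted p = 0.805 and 0.0706); it lies next to PSMB5 in the genome.

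**Figure D5:**
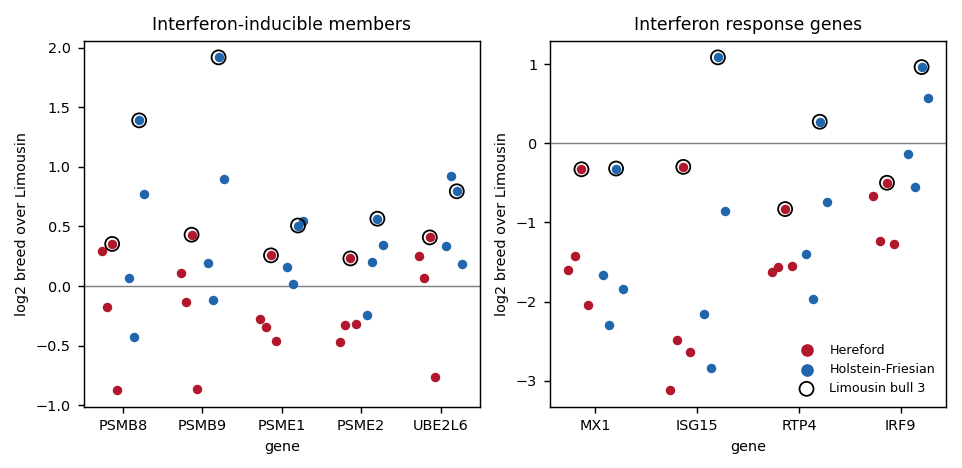
Log2 ratio of breed over Limousin after loess for the 5 interferon-inducible members (left) and 4 interferon response genes (right), each point 1 array (red Hereford, blue Holstein-Friesian), with arrays of Limousin bull 3 circled. Arrays of bull 3 are the highest of their breed for PSMB8, PSMB9 and ISG15, with PSMB9 at 1.92 and ISG15 at 1.09 in Holstein-Friesian; with median centring the medians of the left panel are 0.09 in Hereford and -0.02 in Holstein-Friesian.

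The chaperones that assemble the core gave no call. PSMG1 and PSMG2, which pair to build the alpha ring, had means of 0.04 and 0.09 in Hereford and -0.05 and -0.19 in Holstein-Friesian, all within their spread. PSMG3 read 0.16, 0.75, 0.79 and 0.19 in Holstein-Friesian (mean 0.47, SD 0.34, limma adjusted p = 0.24) and had a mean of 0.20 (SD 0.62) in Hereford (0.652). All 4 Holstein-Friesian arrays of PSMG3 were above 0. PSME3IP1, the gene that shares only the prefix, fell in Hereford, at -0.45, -0.30, -0.39 and -0.41 (mean -0.39, SD 0.06, 0.764 of Limousin, limma adjusted p = 0.019). It stood at -0.33, -0.05, -0.11 and 0.03 in Holstein-Friesian (0.349), where 3 of 4 arrays lay above every Hereford array.

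The E2 enzymes held 1 fall and 1 rise, both in Hereford. The 17 measured had a median of -0.04 in Hereford (11 below 0) and -0.16 in Holstein-Friesian (12 below 0), and of 0.17 and -0.75 with median centring. UBE2J2, an E2 of the endoplasmic reticulum membrane that serves the clearance of misfolded proteins, fell in Hereford, at -0.48, -0.60, -0.53 and -0.88 (mean -0.62, SD 0.18, 0.649 of Limousin, limma adjusted p = 0.0164). In Holstein-Friesian it read -0.61, -0.34, -0.03 and -0.28 (limma adjusted p = 0.11), and in the mean of both breeds -0.47 (0.0566; 0.0259 with the Limousin bull as a block). All 8 arrays were below 0. Limousin alone, however, read -0.32 in Cy5 against Cy3 for UBE2J2 (limma adjusted p = 0.0378), and read in the same dye it stood at -0.30 in Hereford, with no call, and -0.64 in Holstein-Friesian, with a call.

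UBE2W was the 1 member that rose in Hereford. This E2, which puts ubiquitin on the first residue of a protein rather than on a lysine, read 0.09, 0.50, 0.93 and 0.81 (mean 0.58, SD 0.37, 1.5 times Limousin, limma adjusted p = 0.042). In Holstein-Friesian it read -0.16, -0.10, 0.13 and -0.36 (mean -0.12, 0.647), and the Hereford array was the higher in 4 of 4 bulls, with a difference of 0.71 (0.0911). Read in the same dye, UBE2W stood at 0.40 in Hereford without a call.

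Of the UBE2D family, E2s that work with many ligases, UBE2D2, UBE2D3 and UBE2D4 had low values in Holstein-Friesian. UBE2D3 read -0.51, -0.19, -0.23 and -0.37 there (mean -0.32, SD 0.14, limma adjusted p = 0.0506; 0.0449 with the Limousin bull as a block) and -0.22 on average in Hereford (0.133). UBE2D2 read -0.35, -0.34, -0.18 and -0.21 (mean -0.27, SD 0.09, 0.0534) and -0.04 on average in Hereford. UBE2D4 had opposite signs in the breeds, with all Hereford arrays above 0 (0.06 to 0.60) and all Holstein-Friesian arrays below 0 (-0.94 to -0.12), a difference of 0.74 (SD 0.52, limma adjusted p = 0.0861). UBE2D1 had the widest spread of all members, from -2.61 on Hereford array 1 to 0.51 on array 4. These genes are close relatives in sequence, and whether each probe tells them apart was not tested.

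UBE2E3 showed the same contrast between breeds as UBE2D4. It read 0.41, 0.04, 0.07 and 0.46 in Hereford and -0.17, -0.52, -0.31 and -0.38 in Holstein-Friesian, with no overlap. The difference was 0.59 (SD 0.19), with a limma adjusted p of 0.0586 from the breed means and 0.0486 in limma on the bull differences. UBE2V2, the inactive partner that steers lysine-63 chains, differed by 0.51 (0.183). UBE2E2 was -0.34 on average in Hereford (0.0811) and 0.12 in Holstein-Friesian. UBE2G1 and UBE2H had means of -0.23 and -0.02 in Hereford and -0.19 and -0.16 in Holstein-Friesian. UBE2G2 was the 1 member with more than 1 usable probe, and its probes differed in sign (0.20 and -0.10 in Hereford).

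The E2s of the cell cycle and DNA repair gave no call. UBE2S, which extends ubiquitin chains in mitosis, had means of -0.38 in Hereford and 0.16 in Holstein-Friesian, but its Limousin readings were -0.56 in Cy5 against Cy3 (limma adjusted p = 0.0367), and in the same dye the breeds stood at 0.17 and -0.40. UBE2C, its partner, had means of 0.04 and -0.12 near background. UBE2T, which serves DNA repair, had means of -0.07 and 0.32 (0.828 and 0.181). Among all 52 members, 4 were called in Limousin alone between the dyes, which also differ by slide (PSMA7, PSMB2, UBE2J2 and UBE2S), against 4.4% of all probes.

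Testing the breeds against each other called none of the 52 members, against 2.71% of all probes (1.56% higher and 1.15% lower in Hereford), although 16 had an unadjusted p under 0.05 in limma (21.1% of all probes had). That test compared the breed means without the pairing by bull. Limma on the 4 bull differences called PSMA6 and UBE2E3, against 4.11% of all probes. The unpaired test without bull 1 called PSMA6, against 2.68%. The members' median difference, Hereford minus Holstein-Friesian, was -0.17 after loess (35 of 52 below 0, against 46.9% of all probes). With median centring it was 0.74, or 0.38 relative to all probes. In that setting 28 members were called, all higher in Hereford, beside 36.5% of all probes called in either direction. Breed and dye cannot be told apart in this difference.

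Genes of the same pathway that are not members showed scattered changes. Of all probes, 7.14% were called in Hereford and 6.45% in Holstein-Friesian, and 24.2% and 23.5% had an unadjusted p under 0.05 in limma. Of 6 E1 activating enzymes measured (8 listed) none was called in any comparison; with unadjusted p under 0.05 there were 2 in Hereford and 1 in Holstein-Friesian. UBA6 was at 0.57 in Hereford (limma adjusted p = 0.0501) and UBA7, the E1 for ISG15, at -1.08 (0.106). Of 7 ubiquitin and ubiquitin-like precursors (10 listed) none was called, with 1 at unadjusted p under 0.05 in each breed.

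Of 9 E3 ligases measured (16 listed), 1 rose in Hereford (3.39% of all probes did), and 2 rose (3%) and 1 fell (3.45%) in Holstein-Friesian. TRIM32, a muscle ligase, rose in Hereford (0.69, SD 0.14, limma adjusted p = 0.00977) and Holstein-Friesian (0.47, SD 0.23, 0.029), though median centring gave 0.91 and -0.05. TRIM63, the atrophy ligase MuRF1, rose in Holstein-Friesian, at 1.49, 1.54, 0.28 and 0.97 (mean 1.07, SD 0.59, limma adjusted p = 0.0301; 1.23 in the same dye, and 0.40 without a call after median centring), and had a mean of 0.10 in Hereford (0.847). The difference between the breeds for TRIM63 was -0.97 (0.126). MDM2, the ligase of p53, fell in Holstein-Friesian (mean -0.62, SD 0.23, limma adjusted p = 0.0114) and stood at 0.13 in Hereford (0.47; 0.74 with a call in the same dye). Leaving out a bull, the Hereford call of TRIM32 was lost without bull 4 (limma adjusted p = 0.0879), the Holstein-Friesian call of TRIM32 without any (0.0577 to 0.137), that of TRIM63 without bull 1, 2 or 4 (0.0995 to 0.153), and that of MDM2 without bull 2, 3 or 4 (0.0519 to 0.067).

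The deubiquitinases (8 of 11 measured) gave 1 call, UCHL3, which rose in Holstein-Friesian (0.39, limma adjusted p = 0.0473; 0.0897 to 0.22 without any single bull; -0.26 after median centring). USP14, which sits on the cap, had means of -0.09 and -0.30. Shuttles and regulators (5 of 15 measured) gave 2 falls in Hereford (3.75% of all probes fell) and 1 in Holstein-Friesian (3.45%). RAD23B, a shuttle that carries ubiquitin-tagged proteins to the cap, fell in Hereford, at -1.33, -0.97, -1.10 and -0.68 (mean -1.02, SD 0.27, limma adjusted p = 0.0189; 0.0643 to 0.106 without bull 2, 3 or 4; -0.98 with a call in the same dye), and stood at -0.64 in Holstein-Friesian (0.071). NSFL1C, a cofactor of the segregase VCP, fell in Hereford (mean -0.58, limma adjusted p = 0.0239; 0.0956 to 0.141 without bull 2, 3 or 4) and stood at 0.18 in Holstein-Friesian. NFE2L1, the transcription factor that controls proteasome genes, fell in Holstein-Friesian (mean -0.51, limma adjusted p = 0.0407; 0.0732 to 0.202 without any single bull). In the same dye NFE2L1 stood at -0.12 there without a call and at -0.48 in Hereford with one. POMP, which matures the core, stood near 0 in Hereford (-0.0044) and at 0.29 in Holstein-Friesian (0.419).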

How the data were processed

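Total RNA of 12 bulls was hybridised to 8 arrays, extracted with Trizol per the labels. The submitters' processing notes name Agilent Feature Extraction 10.7.3.1. Spot and background brightness are intensity values per the file headers, as pixel medians; the plan named means, which were not used here. The deposited values are log10 of red (Cy5) over green (Cy3) and equal the scanner's log ratio in 44407 of 44407 spots on every array; on the Holstein-Friesian arrays that is Limousin over Holstein-Friesian, so these ratios were turned to breed over Limousin. Other columns used, per the file headers, are flags for background, saturation and outliers. Columns left without a sample numbered 0.

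With limma 3.58.1 (R 4.3.3, jsonlite 2.0.0, statmod 1.5.0 and the data.table package, version 1.17.8), background was corrected (normexp, offset 50), arrays were normalized by loess (span 0.3, controls weighted 0), outlier spots dropped and spots averaged per probe, giving log2 ratios from the deposited intensities. Of 21475 probes, 17061 had at least 4 of 16 readings well above background (at least 0.5 of a probe's spots). Symbols came through RefSeq accessions (assembly ARS-UCD2.0), for 8215 probes; the arrays' own annotation follows Btau_3.1, so no coordinates are given. A gene was read by its brightest probe. Breed means were fitted over 8 arrays with lmFit and eBayes, two-sided, with Benjamini-Hochberg adjustment at 0.05; the mean of both breeds was fitted over 4 bull means, and Limousin in Cy5 was set against the same bulls in Cy3, as was each breed against Limousin in its own dye, from single channels after loess and Aquantile scaling between arrays. The replicate number is the Limousin bull by the labels, so it pairs the arrays; deviations of same-numbered arrays correlated at 0.41, 0.27, 0.50 and 0.10 for bulls 1 to 4, and the block used a correlation of 0.31. The difference between the breeds was tested as a contrast of the breed means over 8 arrays, without the pairing by bull. Its SDs are over the 4 bull differences. In the block setting this difference was fitted on the 4 bull differences instead, without that correlation. The scripts were tested on simulated data. Figures were drawn with matplotlib 3.10.9.

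The members and lists were chosen with earlier results of these data known. Named were all called members, the 2 of smallest p per role and comparison, and a chosen set of well-known members. Marker lists covered muscle fibre (6 of 8 measured; median 0.21 in Hereford and -0.38 in Holstein-Friesian), adipocyte (5; 0.22 and -0.26), endothelium (2; 0.0016 and 0.07), fibroblast (6; -0.05 and -0.90), smooth muscle (4; 0.10 and 0.17), lymphocyte (4; 0.09 and 0.03), blood (2; 0.11 and 0.12), macrophage (3; -0.28 and 0.49) and interferon response (5; -1.35 and -0.96). Alternatives covered the signal, scaling, filter, probe rule, block, dye, samples fitted and each bull left out; those of the Limousin dye check were chosen after seeing the data. The values of 1 member and of 1 listed gene are not reported here.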

Additional observations from a re-analysis of the deposited data

Results flagged for a closer look

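Among 104 sets of 4 arrays (52 members in each breed), 6 held an array whose gap to its nearest neighbour exceeded Dixon's critical share of the whole range, which chance passes in about 1 in 20 sets. In Holstein-Friesian, array 1 was apart for PSMA2 (-0.65, others -0.28 to -0.25), PSMC4 (-0.26, others -0.08 to -0.06) and PSMD1 (-0.88, others -0.22 to -0.16), and array 2 for UBE2C (-0.39, others -0.04 to -0.01). In Hereford, array 3 was apart for PSMB11 (-0.26, others 0.13 to 0.17) and UBE2E2 (-0.68, others -0.25 to -0.18).

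Of the related genes, 2 differed between the breeds in limma's test of the difference. That test compared the breed means without the pairing by bull, while the SDs given here are over the 4 bull differences. MDM2 was 0.75 higher in Hereford than in Holstein-Friesian relative to Limousin (SD 0.18, n = 4 bulls, limma adjusted p = 0.0341), the same way in 4 of 4 bulls; limma adjusted p was 0.0566 to 0.177 without any single bull. NSFL1C was lower, at -0.76 (SD 0.44, limma adjusted p = 0.0452; 0.166 to 0.262 without bull 2, 3 or 4), and stood at 0.25 with median centring (0.346).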

How the results depend on the processing

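Calls among the members depended on the settings. In Hereford 7 members were called, beside 7.14% of all probes. With all 16 readings above background there were 10 (9 lower, with PSMA6, PSMB2 and PSMD12 added), beside 8.43%. Processed signals or deposited ratios gave 2 (PSMA5 and UBE2J2, both lower), beside 5.2% and 5.4%. Median centring gave 1 (1.85%), the same dye 2 (PSMA5 and PSMA7, 4%) and a fit of its own arrays 1 (PSMA5, 0.158%). Without single replicates there were 0 to 7. These were 0 without bull 2 (0.264% of all probes) or bull 4 (0.176%), and 2 without bull 3 (2.06%). Without bull 2, 3 or 4, 16 to 20 members had an unadjusted p under 0.05 in limma. In Holstein-Friesian 1 became 33, all lower, with median centring, beside 39.2% of all probes. It became 2 with no filter on dim probes (4.68%), 2 with the replicate block (6.33%) and 2 in the same dye (5.96%). Its own arrays gave 0 (4.92%), with 17 at unadjusted p under 0.05 in limma. Without single replicates there were 0 to 1. These were 0 without bull 2 (0.457%), 3 (1.61%) or 4 (0.744%). In the mean of both breeds 1 became 11 with median centring (5.57% of all probes) and 7 with the replicate block (5.33%). It became 0 with no filter (0.196%), with 14 at unadjusted p under 0.05 in limma. Without any single replicate it was 0, beside at most 0.00586% of all probes. Between the breeds 0 became 28 with median centring (36.5% of all probes), 2 in limma on the 4 bull differences (4.11%), and 0 to 1 without single replicates. The Limousin dye check called 4 (4.4% of all probes), and 0 to 25 without single replicates (25 without bull 1, beside 33.5% of all probes). The replicate block also called PSMA6 (limma adjusted p = 0.0414) and PSMD12 (0.0461) in Hereford, and lost no call that limma made without it.

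The members' medians with median centring were 0.088, -0.71, -0.28 and 0.74 for Hereford, Holstein-Friesian, their mean and their difference; the difference ranged from -0.27 to -0.068 without single replicates. Median centring reversed the sign of many members, in Hereford as well. Named here are only reversed members that were called after loess or after the centring. In Holstein-Friesian median centring gave PSMB5 -0.59, PSMC1 -0.45, PSMC5 -0.62, PSMD3 -0.66 and UBE2S -0.45. Between the breeds it gave PSMA1 0.94, PSMA5 0.57, PSMB5 0.88, PSMB7 0.88, PSMC4 0.69, PSMC5 0.94, PSMD1 0.93, PSMD11 0.74, PSMD13 0.70, PSMD2 0.85, PSMD4 0.93, PSMD6 0.73 and UBE2J2 0.60. The cause of these changes was not tested. When a bull is left out, fewer arrays and the loss of that bull cannot be told apart.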
